A study of Rattus norvegicus and Mus musculus with 25 samples.

Results

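The genes described are 35 members of the cardiac calcium handling and ion channel machinery, taken as a fixed list of gene symbols. No cutoff on a measured value was applied, but the list was chosen with earlier results of these data known. Rows for 34 of the 35 were present among the 28905 rows of each rat table, and for 35 of 35 among the 54083 rows of the mouse table; Kcnd2 was not analysed here in rat. The list holds 9 genes of calcium release from the sarcoplasmic reticulum, 4 of calcium uptake and extrusion with their kinase, 6 voltage-gated calcium and sodium channel subunits, 6 inward rectifier and background potassium channels, 7 voltage-gated potassium channel subunits, and 3 pacemaker channel and gap junction genes.

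RNA was sequenced from 25 libraries of neonatal heart muscle cells. The 16 rat libraries came from cultured ventricular cardiomyocytes of 1-day-old SD (Sprague-Dawley) rats, in 8 groups of 2. Cells received 50 nM si-Vldlr or its control si-Control_v for 60 h, 50 nM si-Thbs1 or its control si-Control_t for 60 h, or Reelin or PBS for 48 h. Vldlr OE cells were transduced for 72 h with AAV9-cTnT-Vldlr, a viral vector with a cardiomyocyte promoter, and Control is the group set beside them; the treatment protocol names AAV9-CMV-GFP as the other vector, without saying which group received it. The 2 Control columns carry the name Blank in the table, which matches no label, and were taken as Control because no other group lacked columns. The 9 mouse libraries came from day 1 cardiomyocytes of C57BL/6 mice in 3 groups of 3: Vldlr f/f (floxed, no Cre), Myh6-Cre;Vldlr f/f and Myh6-Cre;Vldlr f/+. Myh6-Cre expresses the recombinase from a cardiomyocyte promoter. Both Cre genotypes therefore differ from Vldlr f/f in the Cre transgene as well as in Vldlr, and Myh6-Cre;Vldlr f/+ also in carrying 1 floxed allele and 1 unfloxed allele. Vldlr encodes a lipoprotein receptor, Reelin is a secreted ligand of it, and the series title names thrombospondin-1 (Thbs1) as acting through the same receptor. Rat cells were pre-plated to remove cells that attach faster than cardiomyocytes. For the mouse cells the sources used here do not describe the isolation.

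In heart muscle, membrane depolarisation opens L-type calcium channels, and the calcium that enters opens ryanodine receptors, which release the larger store held in the sarcoplasmic reticulum. Relaxation follows when the pump encoded by Atp2a2, held in check by phospholamban (Pln), returns calcium to the store and the sodium-calcium exchanger Slc8a1 carries it out of the cell. Potassium channels set the resting potential and end the action potential, pacemaker channels drive spontaneous depolarisation, and connexins couple neighbouring cells. Neonatal cells are immature in this respect: their release units are incompletely built and they still express pacemaker and T-type calcium channels.

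Levels are CPM, scaled by the authors so that each library sums to 1000000. A difference is given as log2 after adding 1 CPM, so that differences of low genes are compressed, with its standard error and a limma p adjusted over all genes tested in the table. Calls were made at an adjusted p under 0.05. The labels name no separate cultures, litters or animals, so the p-values measure the spread between libraries, which may be technical. Cardiomyocyte markers were well above 0 in every library, with 11 of 12 listed markers present in rat (24214 to 42688 CPM summed) and 12 of 12 in mouse (54941 to 68617 CPM). The 8 fibroblast markers summed to 28089 to 46458 CPM in rat and 2972 to 5624 CPM in mouse, so the rat cultures also held much RNA of connective tissue type. In such bulk libraries fewer cells of a type and less RNA per cell cannot be told apart. Vldlr itself was 171 to 183 CPM in si-Vldlr against 252 to 257 CPM in si-Control_v, 656 to 889 against 379 to 577 CPM in Vldlr OE and Control, and 71.3 to 85.1 CPM in Myh6-Cre;Vldlr f/f against 109 to 195 CPM in Vldlr f/f. In Myh6-Cre;Vldlr f/+ it was 98.4 to 112 CPM. Reads from exons outside a floxed segment would still be counted, and the sources used here do not name the floxed exons. Thbs1 was 546 to 745 CPM in si-Thbs1 against 892 to 943 CPM in si-Control_t.

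The store and its pump were the most abundant part of the machinery. In the 16 rat libraries Atp2a2 ranged from 1173 to 3624 CPM (median 1791), Casq2, the calcium buffer inside the store, from 903 to 1657 CPM (median 1144), and Pln from 835 to 1947 CPM (median 1030.0). Ryr2, the release channel, ranged from 213 to 637 CPM, and Gja1, the main ventricular connexin, from 271 to 985 CPM. At the other end, Kcne1 (accessory subunit of the slow delayed rectifier) was listed at 0 in 8 of 16 rat libraries with a maximum of 0.370 CPM. Kcna5 (ultrarapid delayed rectifier) was listed at 0 in 3 rat libraries and reached 0.360 CPM. Kcnip2, the accessory subunit of the transient outward channel, was listed at 0 in 8 rat libraries but reached 4.82 CPM in Control column 2 and 4.78 CPM in Vldlr OE replicate 2. All 3 genes lay above their rat range in mouse, where Kcne1 spanned 65.2 to 158 CPM, Kcnip2 29.9 to 125 CPM and Kcna5 8.11 to 26.6 CPM.

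Per kilobase of exon in the Vldlr f/f mice, where gene models of the authors' build were at hand, the order of levels was led by Atp2a2 at 841 ± 361 CPM per kb (SD, n = 3), Pln at 329.7 ± 31.1, and Casq2 at 204 ± 3.30. Jph2, which tethers the store to the surface membrane, followed at 79.2 ± 27.9 CPM per kb, then the store's histidine-rich calcium-binding protein Hrc at 59.2 ± 14.2 and Gja1 at 57.0 ± 20.8. Kcne1 (40.3 ± 8.15 CPM per kb), Kcnh2, the pore of the rapid delayed rectifier (35.4 ± 10.5), Ryr2 (31.4 ± 5.57) and Kcnip2 (30.2 ± 8.36) came next. The first 3 genes stood apart from each other and from Jph2 beyond their SDs. From Hrc to Kcnip2 the mean of each gene lay within the SD of the gene before it in the order. The lowest members were Kcnd3, a pore of the transient outward channel, at 0.285 ± 0.193 CPM per kb and Scn4b, a sodium channel beta subunit, at 0.0705 ± 0.0625.

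The rat and mouse tables were normalized separately, with species, genome build and cell preparation differing together. Mitochondrially encoded genes took 2.26% to 6.51% of CPM in rat (13 genes) and 14.2% to 24.7% in mouse (37 genes). Set side by side, 8 of 34 members had every mouse library above every rat library: Asph, Cacna1c, Itpr2, Kcna5, Kcne1, Kcnip2, Kcnj11 and Kcnk3. That is 23.5% of members against 16.9% of the 12366 symbols that both species' tables hold and that reached 1 CPM in at least 2 rat or 3 mouse libraries, a rule that all 34 members met. The reverse held for 7 members (Cacna1g, Camk2d, Casq2, Hcn2, Kcnd3, Scn4b and Slc8a1), 20.6% against 27.9% of all symbols. The pore of the L-type calcium channel, Cacna1c, was 156 to 448 CPM in mouse and 55.8 to 137 CPM in rat, whereas a T-type pore, Cacna1g, was 29.0 to 84.7 CPM in mouse and 228 to 551 CPM in rat. Kcnd3 was 0.793 to 14.0 CPM in mouse and 21.8 to 53.2 CPM in rat. These are levels of the same gene in different tables, with no test.

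**Figure D1:**
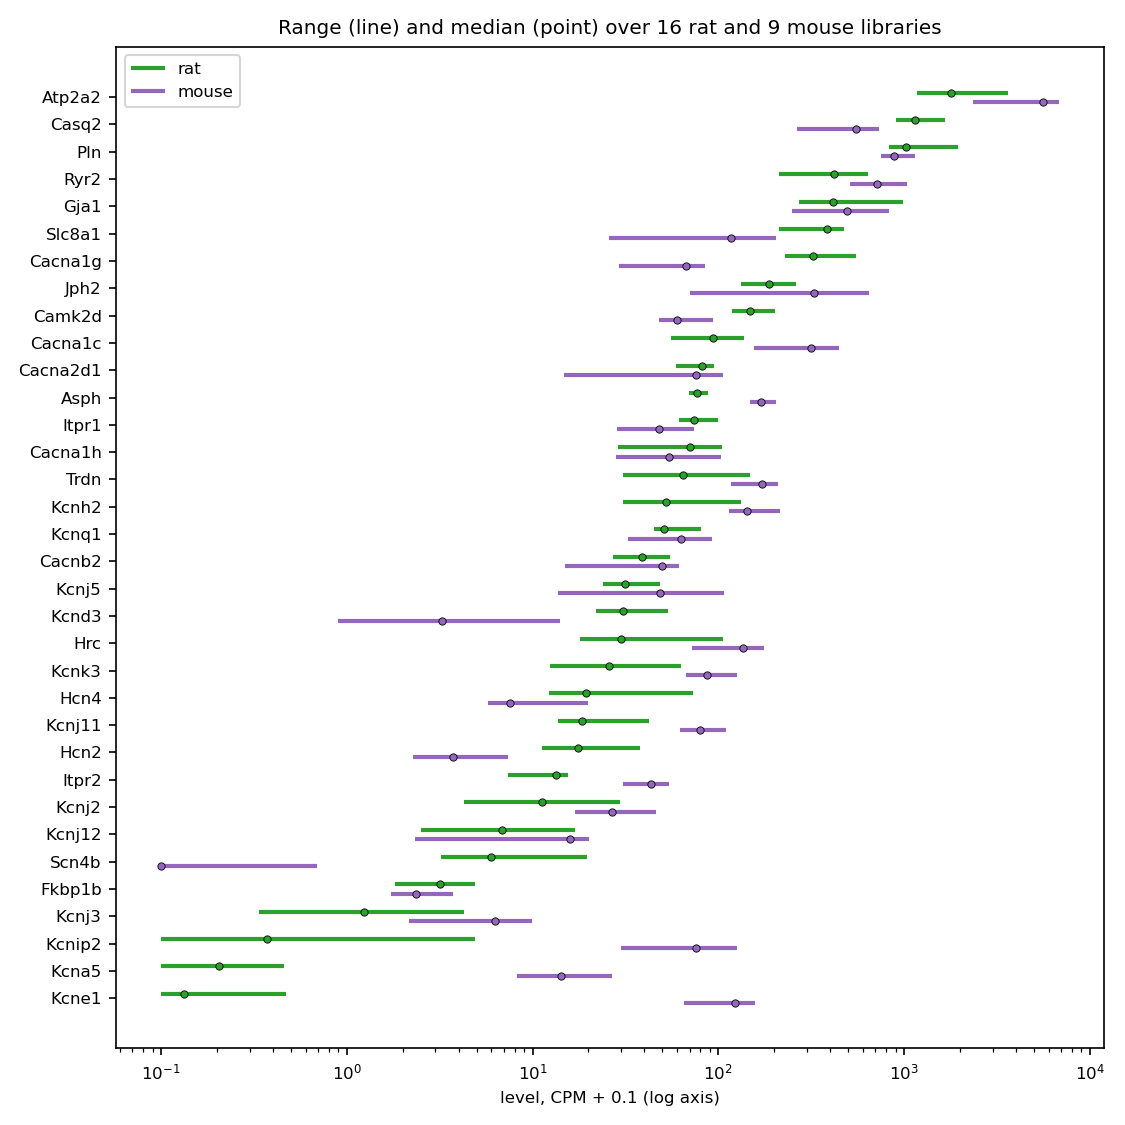
Range (line) and median (point) of the level of each of 34 members over 16 rat libraries (green) and 9 mouse libraries (purple), in CPM plus 0.1 on a log axis, ordered by the rat median. Kcne1, Kcna5 and Kcnip2 lie far to the right in mouse, and Scn4b, Kcnd3 and Hcn2 to the left.

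No member was called in any of the 7 comparisons, so what follows describes the direction and size of differences and how they sit against the spread between libraries. The share of all genes called was also small. It was 0.0289% in the si-Vldlr comparison, 0.0144% in that of Reelin, 0.00722% in that of Vldlr OE, 0.0447% in that of si-Thbs1, and 0% in each of the 3 mouse comparisons.

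With si-Vldlr, 27 of 32 members tested were lower than in si-Control_v and 5 were higher, with a median log2 difference of -0.26 beside -0.02 for all 13860 genes, of which 53.9% were lower and 46.0% higher. All 4 uptake and extrusion genes, all 6 calcium and sodium channel subunits, all 4 voltage-gated potassium channel subunits tested and all 3 pacemaker and gap junction genes were lower, with role medians from -0.26 to -0.35. Of these, Kcnip2 counted as lower through 1 control library. It was 0 CPM in both si-Vldlr libraries and 0 and 4.08 CPM in si-Control_v. Inward rectifier and background potassium channels were lower in 5 of 6, with a median of -0.46. Calcium release genes divided, 5 lower and 4 higher (median -0.13). limma called 0 of 32 members, and 3 had an unadjusted p under 0.05, while 11.8% of all genes did. The 2 groups did not overlap for 16 of 32 members, against 48.5% of all genes; 13 of these were lower (27.4% of all genes) and 3 higher (21.1%).

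The members of smallest p were channel genes. Cacnb2, the auxiliary beta subunit that carries L-type channels to the membrane, was 40.0 and 37.8 CPM in si-Vldlr and 46.4 and 46.6 CPM in si-Control_v (log2 difference -0.25 ± 0.11, adjusted p = 0.414). The groups did not overlap, and the 2 controls nearly coincided. Kcnh2 was 44.8 and 53.7 CPM against 55.6 and 80.0 CPM (-0.44 ± 0.19, adjusted p = 0.421). Kcnj12, an inward rectifier of the resting potential, was 6.78 and 6.80 CPM against 8.33 and 11.9 CPM (-0.49 ± 0.22, adjusted p = 0.421). Cacna1h, the other T-type calcium channel pore, was 58.4 and 65.7 CPM against 79.9 and 101.5 CPM (-0.53 ± 0.24, adjusted p = 0.430). In all of these the groups were separate, while the controls of Kcnh2, Kcnj12 and Cacna1h differed from each other by more than the si-Vldlr libraries did, with replicate 2 the higher. Kcnj11, pore of the ATP-sensitive potassium channel, overlapped, at 14.8 and 18.5 CPM against 18.0 and 35.4 CPM (-0.59 ± 0.27, adjusted p = 0.431). So did Kcnq1, pore of the slow delayed rectifier, at 44.9 and 51.3 CPM against 50.6 and 65.9 CPM (-0.26 ± 0.13, adjusted p = 0.459).

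The main calcium cycling genes were held apart mainly by 1 control library. Atp2a2 was 1653 and 1885 CPM in si-Vldlr and 1815 and 3048 CPM in si-Control_v, and Pln was 896 and 1041 CPM against 923 and 1564 CPM. For both genes the first control lay between the si-Vldlr libraries. Ryr2 was 421 and 405 CPM against 416 and 578 CPM, and Gja1 was 299 and 389 CPM against 345 and 671 CPM, with the same arrangement. Slc8a1 (386 and 383 CPM against 408 and 478 CPM) and Cacna1c (84.9 and 82.5 CPM against 93.2 and 119.6 CPM) did not overlap. The members higher in both si-Vldlr libraries were the inositol trisphosphate receptors Itpr1 (82.9 and 76.1 against 65.1 and 69.7 CPM) and Itpr2 (14.7 and 13.4 against 10.7 and 13.4 CPM, nearly touching), and the ryanodine receptor-binding Fkbp1b (4.45 and 4.82 against 3.08 and 4.05 CPM).

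Between the 2 si-Control_v libraries themselves, 26 of 32 members were higher in replicate 2, with a median log2 difference of 0.35 beside -0.02 for all genes, of which 47.2% were higher. In that pair 9 members differed by more than 1.5-fold, against 6.49% of all genes. Kcnj2, another inward rectifier, was 2.07 times as high in replicate 2, Hrc 2.00 times, Gja1 1.94 times, Pln 1.69 times and Atp2a2 1.68 times. Mitochondrially encoded genes took 6.51% of CPM in that library and 4.32% in the other, and the cardiomyocyte markers summed to 34662 and 32199 CPM. Their part in the members' levels was not tested. Both si-Vldlr libraries had lower cardiomyocyte marker sums (27988 and 28842 CPM) than both controls, and higher sums of the 7 smooth muscle and pericyte markers (3639 to 3717 against 2711 to 3189 CPM), which was likewise not tested. Also apart were the epicardial and mesothelial markers (104 to 108 against 94.9 to 95.8 CPM) and the neuron and glia markers (9.78 to 12.7 against 13.5 to 16.7 CPM). Without si-Control_v replicate 2, the count of lower members was 20 of 32 and the median -0.05, and without replicate 1 the median was -0.44.

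The promoters of Atp2a2, Pln and Gja1 are shown because these abundant members, picked after their values were seen, were together much higher in 1 si-Control_v library. The windows run from 250 bases before to 50 after the RefSeq start on the rat build GRCr8, plus strand, at chr12:39733269-39733568 for Atp2a2, chr20:33172244-33172543 for Pln and chr20:36302314-36302613 for Gja1. Capitals mark matches on either strand to the box CCAAT, to the GC-rich element GGGCGG, to the element TGAGTCA of the AP family and to AGATAA, a letter string of the GATA family.
Atp2a2: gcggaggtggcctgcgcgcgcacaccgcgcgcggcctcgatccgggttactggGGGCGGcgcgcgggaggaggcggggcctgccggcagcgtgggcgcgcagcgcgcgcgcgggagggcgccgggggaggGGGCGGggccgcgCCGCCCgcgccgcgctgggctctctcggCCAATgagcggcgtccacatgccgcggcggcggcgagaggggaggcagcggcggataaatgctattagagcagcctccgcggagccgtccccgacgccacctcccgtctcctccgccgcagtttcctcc
Pln: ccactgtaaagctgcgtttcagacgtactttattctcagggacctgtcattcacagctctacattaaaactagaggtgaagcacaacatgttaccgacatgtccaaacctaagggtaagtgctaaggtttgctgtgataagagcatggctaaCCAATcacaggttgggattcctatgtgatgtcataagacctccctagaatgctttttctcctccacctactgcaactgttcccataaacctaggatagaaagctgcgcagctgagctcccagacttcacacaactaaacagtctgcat
Gja1: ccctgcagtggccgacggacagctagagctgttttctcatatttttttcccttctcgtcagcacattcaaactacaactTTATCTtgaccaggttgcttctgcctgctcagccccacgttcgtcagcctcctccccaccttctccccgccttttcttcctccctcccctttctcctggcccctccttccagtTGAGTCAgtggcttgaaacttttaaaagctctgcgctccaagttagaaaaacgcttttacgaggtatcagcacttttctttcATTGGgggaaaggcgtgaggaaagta
All 3 windows held 1 CCAAT match. Atp2a2 also held 3 matches to GGGCGG, and Gja1 held 1 match each to TGAGTCA and AGATAA. RefSeq windows were matched for 25 of the 35 members. CCAAT was present in 40.0% of these and in 37.5% of all 33469 promoters, GGGCGG in 48.0% and 33.1%, TGAGTCA in 8.0% and 4.63%, and AGATAA in 3 of the 25 and in 11.6% of all. A member gene was counted if any of its windows matched, whereas the share of all promoters counts single windows. The paired percentages are therefore not in like units. A match describes letters in the window and not a bound site.

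**Figure D2:**
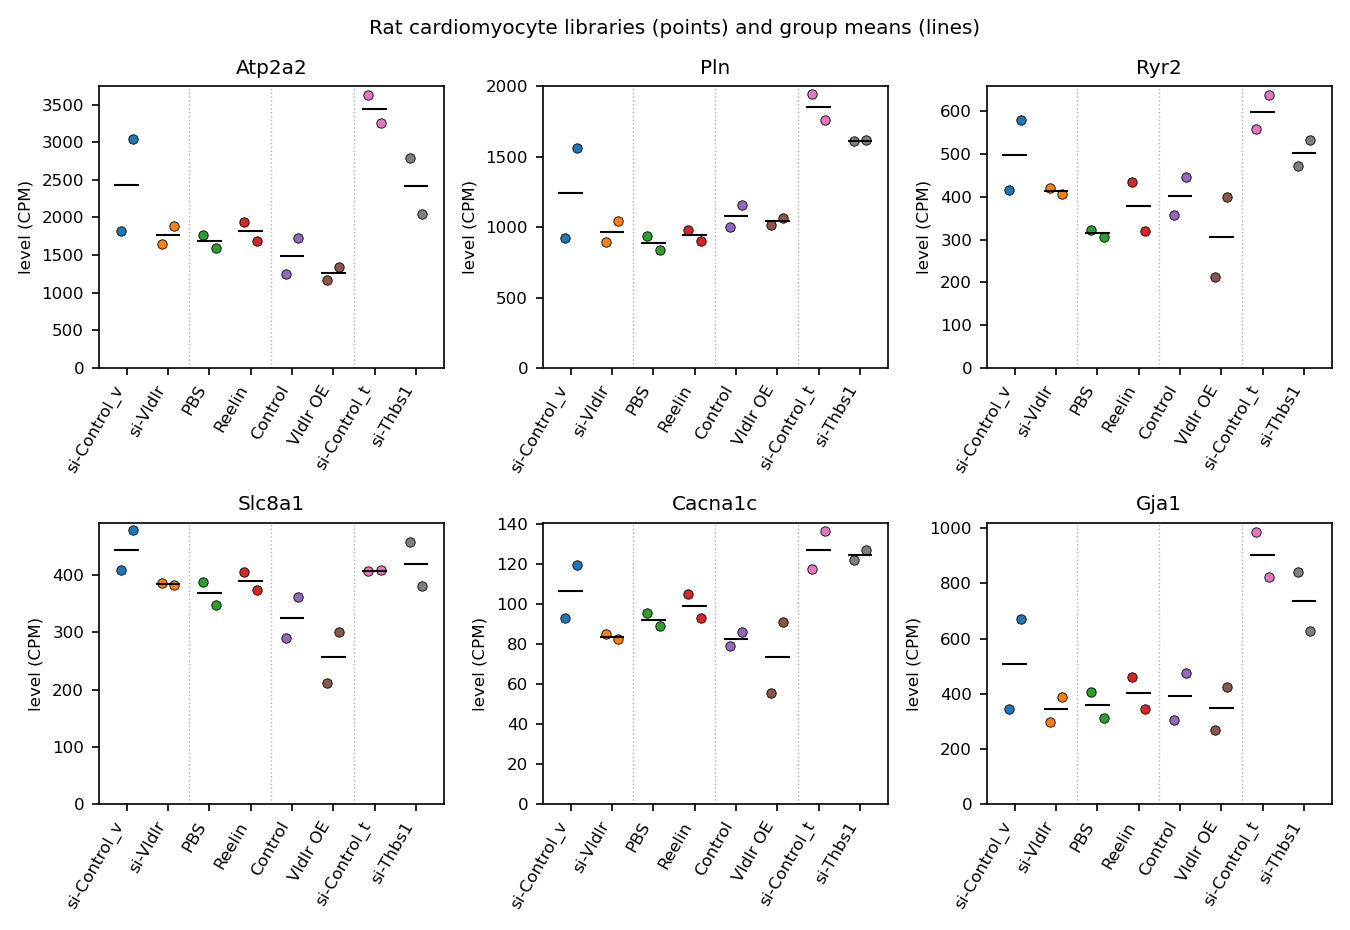
Level in CPM of Atp2a2, Pln, Ryr2, Slc8a1, Cacna1c and Gja1 in each rat library (points, replicates or columns 1 and 2 from left to right) with group means (lines), each treated group beside its control and the 4-library table at the right. The high si-Control_v point in each panel is replicate 2, and the low Vldlr OE point is replicate 1.

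Reelin gave small differences in the other direction. Of 32 members 28 were higher and 4 lower than with PBS, with a median of 0.07 beside 0.02 for all genes, of which 58.5% were higher and 41.4% lower. All 9 calcium release genes, all 4 uptake genes, all 6 calcium and sodium channel subunits and all 4 voltage-gated potassium channel subunits tested were higher, while the inward rectifiers divided 3 and 3. Kcnip2, counted among the higher, averaged only 0.701 CPM with Reelin and 0.287 CPM with PBS. limma called 0 members, 0 had an unadjusted p under 0.05 (1.36% of all genes did), and 3 members did not overlap, against 32.8% of all genes. These 3 were all higher, as were 19.7% of all genes, with 13.0% lower. They were Kcnq1 at 56.7 and 50.3 CPM with Reelin and 49.0 and 47.6 CPM with PBS (0.14 ± 0.13, adjusted p = 1), Jph2 at 186 and 187 against 175 and 178 CPM (0.08 ± 0.10), and the store anchoring protein junctin gene Asph at 75.4 and 72.5 against 70.5 and 69.5 CPM (0.08 ± 0.08). In each the gap between the groups was small beside the level. Ryr2 was 434 and 321 CPM with Reelin and 322 and 306 CPM with PBS (0.25 ± 0.27). In this gene Reelin replicate 1 alone was high and replicate 2 lay within the controls.

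The same pattern ran through the other cycling genes. Atp2a2 was 1939 and 1692 CPM with Reelin and 1768 and 1597 CPM with PBS, and Pln was 979 and 905 CPM against 935 and 835 CPM. Slc8a1 was 405 and 373 CPM against 388 and 347 CPM, Cacna1c 105 and 92.8 CPM against 95.7 and 88.9 CPM, and Gja1 462 and 345 CPM against 407 and 312 CPM. In each of these 5 genes Reelin replicate 2 lay between the PBS libraries. Cacnb2 was 36.8 and 39.5 CPM against 35.4 and 37.0 CPM, and overlapped. Kcnj11 went the other way, at 13.6 and 18.1 CPM against 19.3 and 16.7 CPM (-0.18 ± 0.27), and overlapped too. Reelin replicate 1 had the lowest mitochondrial share of the rat libraries, 2.26% beside 4.40% in replicate 2 and 4.09% and 4.14% in PBS, and its part in these levels was not tested. Marker sums that did not overlap with PBS were those of macrophages (7 genes, 1038 to 1103 against 910.4 to 977 CPM), smooth muscle and pericytes (5164 to 5201 against 4894 to 5119.9 CPM), atrial cells (6449 to 6567 against 6356 to 6421 CPM), all higher, and epicardial and mesothelial cells (119 to 122 against 129 to 135 CPM), lower; their part was not tested either. Without Reelin replicate 1 the members divided into 15 lower and a median of 0.01, and without PBS replicate 2 into 14 lower. Median-ratio scaling left 8 of 32 lower.

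With Vldlr overexpression, all 32 members tested were lower than in the columns taken as Control, with a median of -0.21 beside -0.03 for all genes, of which 57.2% were lower and 42.7% higher (under median-ratio scaling or quantile normalization 30 of 32 were lower). The role medians ran from -0.08 for voltage-gated potassium channels to -0.30 for inward rectifiers. The 32 include Kcnip2, at 0 and 4.78 CPM in Vldlr OE and 2.77 and 4.82 CPM in Control. limma called 0 members. 1 member had an unadjusted p under 0.05, against 4.52% of all genes, and 6 did not overlap, against 25.0% of all genes. All 6 were lower, in which direction 15.5% of all genes lay apart, beside 9.54% higher. The member of smallest p was Kcnj5, a subunit of the acetylcholine-activated potassium channel, at 23.7 and 27.4 CPM in Vldlr OE and 29.9 and 30.8 CPM in Control (-0.24 ± 0.10, adjusted p = 0.958). The 2 groups were separate, by less than the distance between the Vldlr OE libraries. Cacna2d1, the alpha2delta subunit of the L-type channel, was 59.2 and 78.9 CPM against 82.9 and 81.2 CPM (-0.26 ± 0.13), also without overlap.

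In most other members Vldlr OE replicate 1 was low and replicate 2 lay among or above the controls. Slc8a1 was 212 and 300.2 CPM against 289.7 and 360.5 CPM (-0.36 ± 0.16, adjusted p = 0.958). Ryr2 was 213 and 399 CPM against 357 and 446 CPM (-0.45 ± 0.27), so its 2 libraries differed 1.87-fold. Cacnb2 was 27.0 and 33.2 CPM against 36.5 and 32.9 CPM, and Jph2 was 159 and 170.5 CPM against 169 and 209 CPM. The groups overlapped in these 4 genes. Atp2a2 was 1173 and 1348 CPM against 1246 and 1727 CPM, Pln 1019 and 1062 CPM against 999 and 1161 CPM, Cacna1c 55.8 and 91.1 CPM against 79.2 and 86.0 CPM, and Gja1 271 and 426 CPM against 307 and 477 CPM. All 4 of these overlapped as well. Within the Vldlr OE pair 27 of 32 members were higher in replicate 2, with a median log2 difference of 0.25 beside -0.02 for all genes. Cardiomyocyte marker sums were 24997 and 26599 CPM in Vldlr OE and 26949 and 28191 CPM in Control, and the 5 atrial markers summed to 8286 and 7835 CPM against 6950.2 and 6526 CPM. The neuron and glia markers were 10.3 and 11.4 against 11.5 and 12.3 CPM. Their part in the members' levels was not tested. Without Vldlr OE replicate 1 the count was 22 of 32 lower with a median of -0.04. Without replicate 2 the median was -0.35 and Cacna1g passed the threshold (-0.48 ± 0.09, adjusted p = 0.043). That fit has replicate 1 as its only Vldlr OE library, assumes that it varies like the other groups, and so describes that library.

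**Figure D3:**
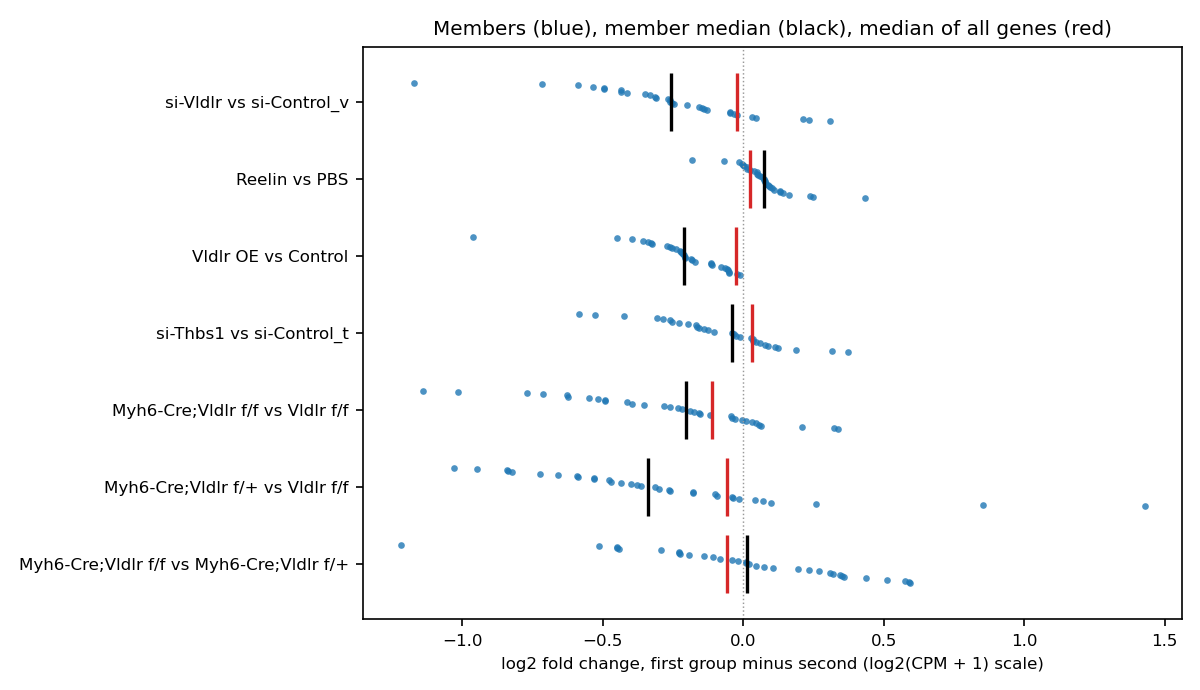
Log2 difference of each tested member in the 7 comparisons (blue points, first group minus second, on the log2(CPM + 1) scale), with the member median (black) and the median of all genes tested (red). Every member lies left of 0 with Vldlr OE on the deposited scale (30 of 32 after rescaling), and the member medians are left of the all-gene medians except with Reelin and between the Cre genotypes.

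With si-Thbs1 the members divided, 19 of 31 lower and 12 higher, with a median of -0.04 beside 0.03 for all 13416 genes, of which 41.6% were lower and 58.4% higher. By role, 6 of 9 release genes, 3 of 4 uptake and extrusion genes and 5 of 6 inward rectifiers were lower. Voltage-gated calcium and sodium channel subunits divided 3 and 3. limma called 0 members and 2 had an unadjusted p under 0.05, against 5.52% of all genes. The 2 groups did not overlap for 12 of 31 members, against 29.3% of all genes; 8 were lower (10.8% of all genes) and 4 higher (18.5%).

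Hrc had the smallest p, at 76.2 and 77.8 CPM in si-Thbs1 and 102 and 105 CPM in si-Control_t (-0.42 ± 0.12, adjusted p = 0.601). Both groups were narrow, and the distance between them was several times the distance within either. Scn4b was 10.3 and 14.6 CPM against 18.3 and 19.5 CPM (-0.58 ± 0.21, adjusted p = 0.800). Atp2a2 was 2787 and 2040 CPM against 3624 and 3257 CPM (-0.53 ± 0.21, adjusted p = 0.904), a 1.44-fold lower mean on that scale with no overlap. The pump's inhibitor Pln was 1609 and 1621 CPM against 1947 and 1758 CPM (-0.20). Trdn, which links calsequestrin to the release channel, was 109 and 128 CPM against 139 and 149 CPM (-0.29 ± 0.14), and Ryr2 was 471 and 532 CPM against 557 and 637 CPM (-0.25 ± 0.15). Neither overlapped. Cacna1h was among the 4 higher members without overlap, at 104 and 103 CPM against 91.4 and 90.6 CPM (0.19 ± 0.12, adjusted p = 1). Slc8a1 (457 and 381 against 406 and 408 CPM), Cacna1c (122 and 127 against 117 and 137 CPM) and Gja1 (840.0 and 629 against 985 and 822 CPM) overlapped.

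Replicate number separated some members of this table more than treatment did. Hcn4, the principal pacemaker channel, was 28.2 CPM in si-Control_t replicate 1 and 30.9 CPM in si-Thbs1 replicate 1, but 73.4 and 69.6 CPM in the replicates 2. Hcn2, its ventricular relative, was 37.8 and 37.7 CPM in the replicates 1 and 18.8 and 21.5 CPM in the replicates 2. Kcnk3, a background potassium channel, was 62.8 and 61.4 CPM against 36.4 and 25.7 CPM in the same arrangement. In all 3 genes the libraries paired by number and not by siRNA. The atrial markers summed to 5054 CPM in si-Control_t replicate 1 and 1156 CPM in replicate 2, and to 8879 and 4431 CPM in si-Thbs1, while cardiomyocyte markers summed to 35258 and 27433 CPM and to 42688 and 24214 CPM. Mitochondrially encoded genes took 4.503% and 5.38% of CPM in si-Thbs1 and 5.89% and 5.43% in si-Control_t, the 5 epicardial and mesothelial markers summed to 82.5 and 83.1 against 105 and 99.6 CPM, and the 6 neuron and glia markers to 12.7 and 8.63 against 17.8 and 26.7 CPM. These 3 sums were lower in si-Thbs1 without overlap. What part these sums play in the members' levels was not tested. The member median ran from -0.05 to -0.10 when each library in turn was left out.

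In mouse, 26 of 34 members tested were lower in Myh6-Cre;Vldlr f/f than in Vldlr f/f, with a median of -0.20 beside -0.11 for all 14922 genes, of which 66.1% were lower and 33.9% higher. Median-ratio scaling brought the all-gene median to 0.00, with 21 of 34 members lower and a member median of -0.08. Calcium channels differed most: 4 of 5 calcium channel subunits were lower with a role median of -0.77, while uptake and extrusion genes had a median of -0.02. limma called 0 members and 0 genes, and edgeR on rescaled and rounded values also called 0. An unadjusted p under 0.05 was found for 2 members, against 3.04% of all genes, and 3 members did not overlap, against 8.52% of all genes. These 3 were lower, as were 6.81% of all genes, with 1.72% higher.

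Cacna1h (mm10 chr17:25374285-25433783, minus strand) was 54.1, 28.0 and 31.5 CPM in Myh6-Cre;Vldlr f/f and 104, 83.6 and 61.6 CPM in Vldlr f/f. Every Cre library lay below every Vldlr f/f library (log2 difference -1.14 ± 0.32, 95% interval -1.84 to -0.43, adjusted p = 0.997). Ryr2 (mm10 chr13:11553102-12106945, minus strand) was 509.8, 702 and 545 CPM against 944, 729 and 1043 CPM (-0.63 ± 0.22, adjusted p = 0.997). The lowest Vldlr f/f library stood just above the highest Cre library. Cacnb2 was 15.7, 39.9 and 38.3 CPM against 61.5, 56.7 and 60.6 CPM (-1.02 ± 0.50). Its Vldlr f/f values were close together and all above the widely spread Cre values. Cacna1g was 80.7, 40.7 and 29.0 CPM against 81.6, 70.4 and 84.7 CPM (-0.77 ± 0.36), Cacna1c 329, 156 and 194 CPM against 299, 393 and 372 CPM (-0.71 ± 0.36), and Itpr1 47.6, 28.4 and 36.2 CPM against 46.8, 55.1 and 61.0 CPM (-0.55 ± 0.29). In these 3 genes Myh6-Cre;Vldlr f/f replicate 1 lay among the controls. Pln was 998, 838 and 882 CPM against 821, 993 and 914 CPM, and the groups were intermingled.

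Against the same Vldlr f/f libraries, 28 of 34 members were lower in Myh6-Cre;Vldlr f/+, with a median of -0.34 beside -0.06 for all genes, of which 58.3% were lower and 41.7% higher. Both comparisons share those 3 control libraries. The 5 atrial markers summed to 10993, 5484 and 9226 CPM in Myh6-Cre;Vldlr f/+ and to 5263, 5252 and 1721 CPM in Vldlr f/f, without overlap, and their part in the members' levels was not tested. In Myh6-Cre;Vldlr f/f these markers were 2700.3 to 5951 CPM and overlapped with Vldlr f/f. limma and edgeR called 0 members and 0 genes; 2 members had an unadjusted p under 0.05, against 2.43% of all genes, and 3 did not overlap, against 5.97%. All 3 were lower (3.77% of all genes), with 2.20% of all genes higher. Cacna1h was 57.3, 39.1 and 32.0 CPM, all below Vldlr f/f (-0.95 ± 0.32, adjusted p = 0.999). Cacna1g, at 67.0, 51.8 and 34.7 CPM, also lay wholly below (-0.66 ± 0.36), and the last was Kcnj11, at 62.4, 79.5 and 76.7 CPM against 109.9, 80.4 and 92.9 CPM (-0.37). Kcnd3 (mm10 chr3:105452330-105674002, plus strand) was higher, at 9.70, 3.70 and 14.0 CPM against 0.793, 4.47 and 2.93 CPM (1.43 ± 0.48, adjusted p = 0.999), with replicate 2 inside the control range. Hcn4 was 6.29, 7.46 and 5.62 CPM against 15.99, 5.66 and 19.8 CPM (-0.84 ± 0.39), Kcnip2 29.9, 71.8 and 84.5 CPM against 125, 71.8 and 118 CPM (-0.84 ± 0.39), and Kcnj5 41.0, 53.9 and 13.6 CPM against 107, 29.9 and 85.2 CPM (-1.03 ± 0.54). In these last 3 genes Vldlr f/f replicate 2 lay inside the range of the Cre libraries, and the other controls lay above it. Ryr2 was 732, 713 and 599 CPM, with Vldlr f/f replicate 2 between its values, and Gja1 was 249.8, 371 and 559 CPM against 498, 429 and 828 CPM. Without Vldlr f/f replicate 2 the member median was -0.41 in Myh6-Cre;Vldlr f/f, and in Myh6-Cre;Vldlr f/+ it was -0.53. Leaving out Vldlr f/f replicate 3 brought the first to -0.11, with 21 of 34 lower.

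Between the Cre genotypes, 15 of 34 members were lower in Myh6-Cre;Vldlr f/f and 19 higher, with a median of 0.01 beside -0.06 for all genes, of which 60.2% were lower and 39.8% higher. limma and edgeR called 0 members and 0 genes, 1 member had an unadjusted p under 0.05 (0.925% of all genes did) and the same member did not overlap (2.49% of all genes, 1.82% lower and 0.677% higher). It was Kcnd3, at 3.14, 3.06 and 2.55 CPM in Myh6-Cre;Vldlr f/f, each below the Myh6-Cre;Vldlr f/+ values above (-1.22 ± 0.48, adjusted p = 1). The others of smallest p overlapped. Casq2 was 565, 669.8 and 524 CPM against 295, 732 and 266 CPM (0.59 ± 0.34), Itpr1 47.6, 28.4 and 36.2 CPM against 74.0, 35.3 and 48.6 CPM (-0.45 ± 0.29), and Kcnj2 36.3, 16.8 and 17.5 CPM against 45.9, 26.7 and 22.6 CPM (-0.44 ± 0.37). Cacna1c was 329, 156 and 194 CPM against 448, 180.3 and 314 CPM (-0.45 ± 0.36). Gja1 was 564, 461 and 494 CPM against 249.8, 371 and 559 CPM (0.44 ± 0.33). Itpr1, Kcnj2 and Cacna1c were highest in replicate 1 of both Cre genotypes. Taken by replicate number, Kcnd3 and these 3 genes were lower in Myh6-Cre;Vldlr f/f in each of the 3 pairs, whereas Casq2 and Gja1 were higher in 2 of 3. With the number as a block in a fit of the Cre genotypes alone, limma gave an adjusted p of 0.976 for each of these 6 genes.

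In each mouse comparison most members, like most genes, had a range within a genotype above the difference of genotype means. Some of them are described here. Slc8a1 (mm10 chr17:81373105-81738377, minus strand) was 32.9 and 41.2 CPM in Myh6-Cre;Vldlr f/+ replicates 1 and 3, 25.7 CPM in Myh6-Cre;Vldlr f/f replicate 1 and 39.2 CPM in Vldlr f/f replicate 2. In the other 5 libraries it was 117 to 205 CPM, with no library in between. Kcnj12 (mm10 chr11:61022564-61071131, plus strand) was 2.54, 6.2, 3.60 and 2.24 CPM in the same 4 libraries, in the same order, and 15.8 to 20.2 CPM in the other 5. Slc8a1 and Kcnj12 were the 2 members that spanned more than 3-fold within every genotype, 5.88% of those tested, against 3.11% of all genes. Atp2a2 was 2356, 3922, 2897 and 2647 CPM in those 4 libraries and 5615 to 6840 CPM in the others. Jph2 was 191, 154, 70.3 and 203 CPM against 329 to 648 CPM. In all, 7 members (with Kcnh2, Kcnj5 and Kcnk3) had these 4 as their lowest libraries, 20.6% of those tested, against 9.13% of all genes. The 4 libraries were defined as those of lowest Slc8a1, so Slc8a1 is among the 7 by construction and the member share is raised by it. This set was singled out after the values were seen. Mitochondrially encoded genes took 21.4%, 16.7%, 20.2% and 19.9% of CPM in the 4 libraries and 14.2% to 24.7% in the others, and cardiomyocyte markers 59779 to 68617 CPM against 54941 to 67087 CPM, so both measures overlapped.

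**Figure D4:**
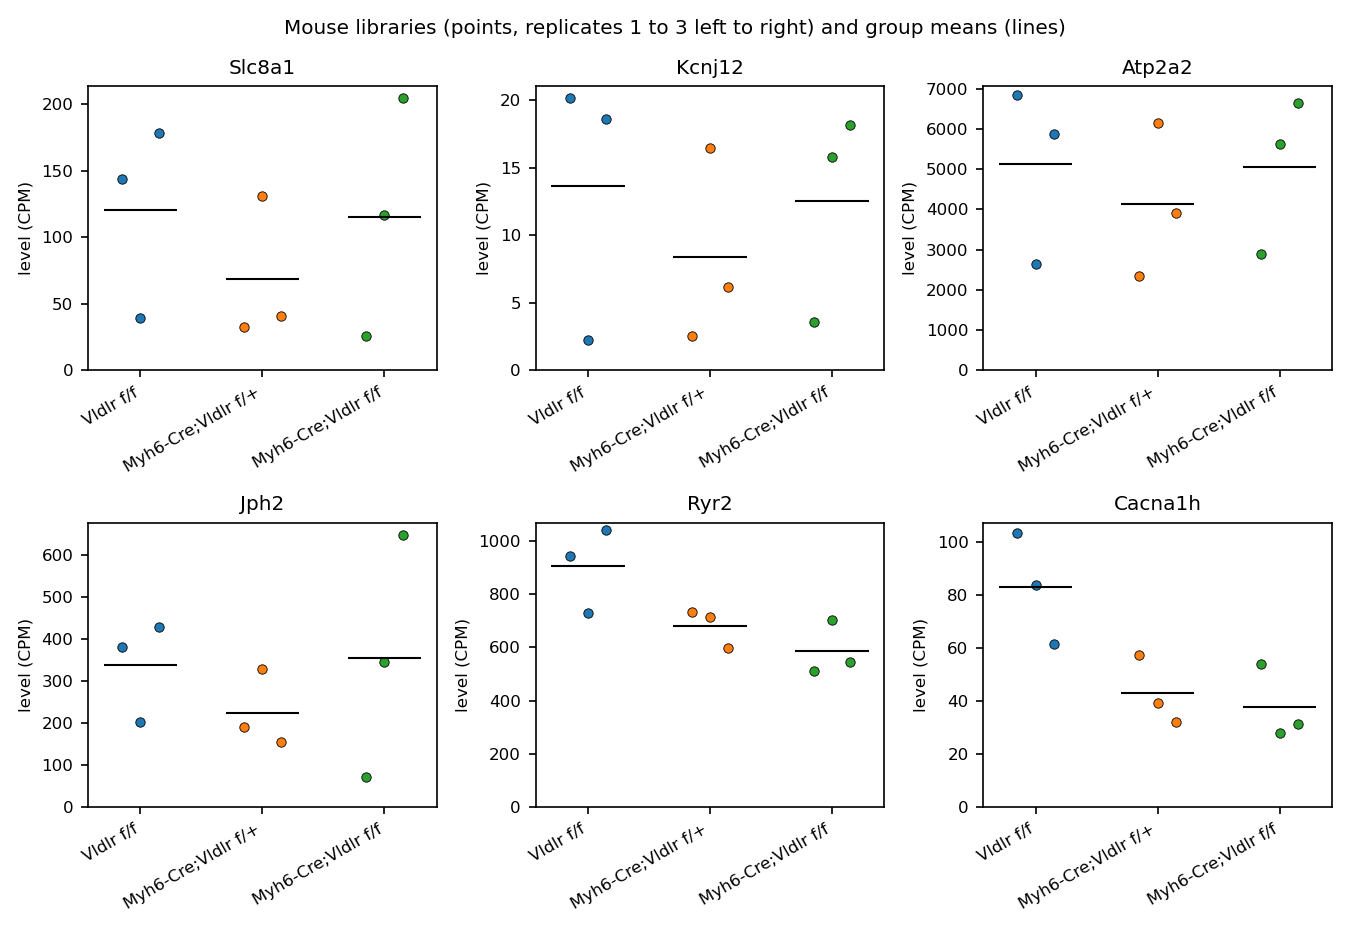
Level in CPM of Slc8a1, Kcnj12, Atp2a2, Jph2, Ryr2 and Cacna1h in each mouse library (points, replicates 1 to 3 from left to right) with genotype means (lines). The first 4 genes fall into a low and a high set of libraries that cuts across genotype, whereas for Cacna1h all Vldlr f/f points lie above all Cre points.

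The larger of the 2 ranges within groups exceeded the difference between groups for most members in every comparison. This held for 25 of 32 members with si-Vldlr (66.0% of all genes), 30 of 32 with Reelin (80.3%), 30 of 32 with Vldlr OE (85.3%) and 22 of 31 with si-Thbs1 (80.2%). In mouse, with Vldlr f/f as the control, it held for 32 of 34 in Myh6-Cre;Vldlr f/f (96.2%) and 33 of 34 in Myh6-Cre;Vldlr f/+ (97.5%). Between the Cre genotypes it held for 34 of 34 (99.0%). In the si-Vldlr comparison the range of si-Control_v exceeded the difference in 25 members and that of si-Vldlr in 7. The mean over all members in each library, relative to its controls, showed the same spread: the si-Control_v libraries were at -0.21 and 0.21, and si-Vldlr at -0.29 and -0.21. Vldlr OE replicate 1 was at -0.41 and replicate 2 at -0.02, between Control at -0.11 and 0.11. With si-Thbs1 the values were -0.07 and -0.09, beside values near 0 in both si-Control_t libraries. In mouse, Vldlr f/f replicate 2 was at -0.32, as low as the Cre libraries, and the other 2 Vldlr f/f libraries were at 0.08 and 0.24.

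**Figure D5:**
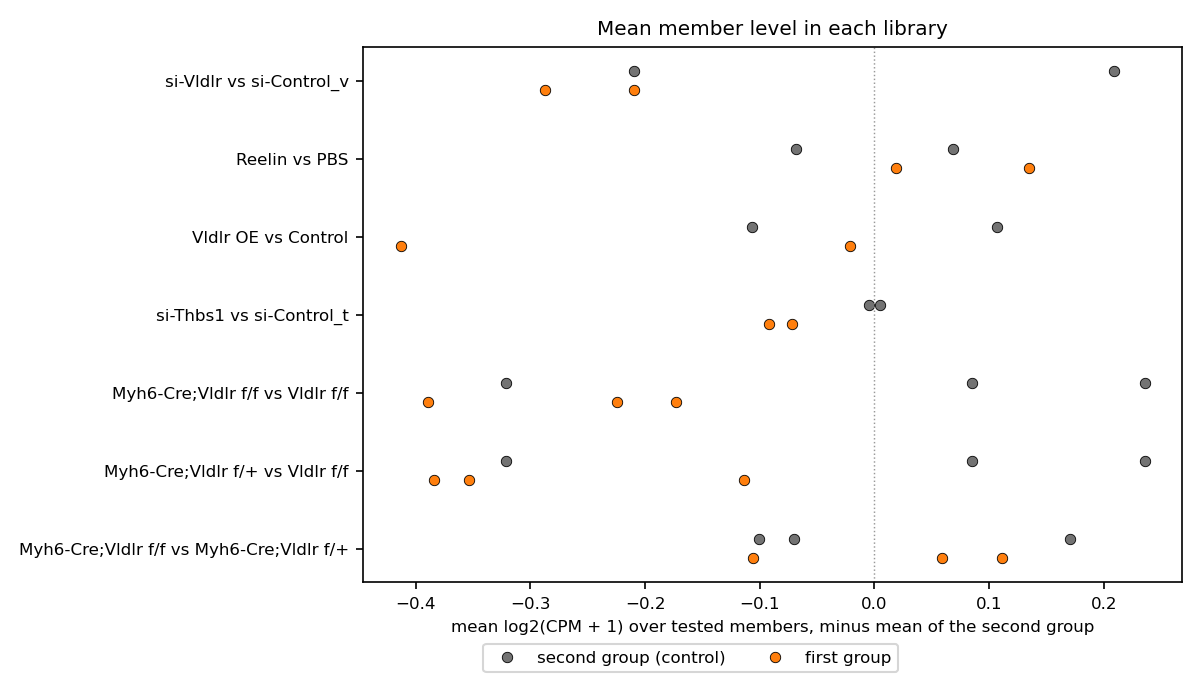
Mean log2(CPM + 1) over the tested members in each library minus the mean of the second group, with first-group libraries in orange and second-group libraries in grey. Vldlr f/f replicate 2 (grey, -0.32) lies among the orange Cre libraries, and the si-Control_v points lie farther apart than any other pair in rat.

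The wider pathway was measured with 30 other calcium handling genes and 36 other ion channel and transport genes, of which 0 were called by limma in any comparison. With si-Vldlr, 13 of 27 other calcium genes were higher and 14 lower (median -0.01), and 12 of 29 other channel genes were higher and 17 lower (median -0.07). The atrial and conduction-system connexin Gja5 was 83.4 CPM on average in si-Vldlr and 53.8 CPM in si-Control_v (0.62 ± 0.11, adjusted p = 0.101), opposite in direction to Gja1. Ryr3, a relative of Ryr2, was 12.4 against 19.4 CPM (-0.60 ± 0.23), and Abcc8, a regulatory subunit of ATP-sensitive channels, 18.0 against 31.0 CPM (-0.70 ± 0.28). With Reelin 13 of 27 and 21 of 29 were higher, and the mitochondrial calcium uniporter Mcu was 26.1 against 21.5 CPM (0.27 ± 0.10, adjusted p = 1). With Vldlr OE 18 of 27 and 16 of 29 were lower.

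With si-Thbs1, 15 of 26 other calcium genes and 14 of 28 other channel genes were higher. Scn3b, a sodium channel beta subunit, was 34.5 against 9.30 CPM (1.87 ± 0.35, adjusted p = 0.471), and the calmodulin-dependent kinase gene Camk2b was 6.54 against 2.32 CPM (1.20 ± 0.29, adjusted p = 0.474). In Myh6-Cre;Vldlr f/f 15 of 28 and 23 of 30 were lower than in Vldlr f/f, including Camk2a at 10.9 against 30.4 CPM (-1.42 ± 0.31, adjusted p = 0.997) and Abcc9, the cardiac partner of Kcnj11, at 135 against 292 CPM (-1.12 ± 0.27, adjusted p = 0.997). In Myh6-Cre;Vldlr f/+ 16 of 28 and 22 of 30 were lower, with Camk2a at 14.1 CPM and the pump inhibitor sarcolipin (Sln), an atrial gene, at 215 against 87.3 CPM (1.35 ± 0.52, adjusted p = 0.999). Between the Cre genotypes 15 of 28 and 10 of 30 were higher in Myh6-Cre;Vldlr f/f.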

How the data were processed

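The authors deposited CPM tables, 1 of 12 and 1 of 4 rat libraries and 1 of 9 mouse libraries. Per the submitters' processing notes, HISAT2 2.1.0, StringTie 1.3.4 and edgeR 3.20.9 were used with the builds rn6 and mm10, and the role of each is not given. Every column sums to 1000000, so composition is not corrected, and tests were made within a table only. Values were checked against whole multiples of a step, in the lower range of each library only. There 100% in mouse and 98.7% to 98.9% in rat were whole, within 0.05 steps. The step of a library was taken as its most common value above 0 divided by 4. The steps sum to 66088371 to 78370873 in mouse and 77530469 to 97773382 in rat, but a step need not be a read, so the depth stays unknown and counting intervals cannot be given. Names tied 23 columns to their samples. The 2 columns of the Control group were assigned by elimination and are called Control column 1 and 2. Rows with repeated names, 4 in every file, were left out.

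limma 3.58.1 (R 4.3.3, intensity trend) was fitted to log2(CPM + 1) computed from the deposited values, with all groups of a table in 1 fit, for genes with at least 1 CPM in 2 rat or 3 mouse libraries, with Benjamini-Hochberg adjustment over all genes. This left 32, 31 and 34 members. Kcna5 and Kcne1 were not tested in rat, nor Kcnip2 in the 4-library table, nor Scn4b in mouse. The fit was also run on simulated data with independent noise in each gene and library. Shifts shared across a library were not simulated, so that run cannot speak to them. Members given by library are those of smallest p, up to 6 per comparison with at least 5 CPM, and Pln, Atp2a2, Ryr2, Slc8a1, Cacna1c and Gja1 where they help, and of the other pathway genes up to 4; others were chosen after their values were seen. Members and lists were chosen with earlier results of these data known.

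Alternatives were other pseudocounts (0.1 and 5), other filters, median-ratio scaling, quantile normalization, fits of only the 2 groups, a replicate block, and leaving out each library. edgeR 4.0.16 (quasi-likelihood) on the mouse values was added after seeing the data. For it each library was divided by its smallest value above 0 and rounded, so its input was not the steps described above. Same-numbered libraries of the Cre genotypes deviated together (correlations 0.46, 0.44 and 0.33 over 14922 genes), so their numbers were taken to pair them, from the data and not from a label. The numbers of Vldlr f/f did not behave so. Its correlations were -0.37, -0.29 and 0.06 with Myh6-Cre;Vldlr f/f and -0.28, -0.54 and -0.05 with Myh6-Cre;Vldlr f/+. Mouse gene models are GENCODE M21 on mm10, and rat promoters are RefSeq on GRCr8, not the authors' build.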

Additional observations from a re-analysis of the deposited data

How the results depend on the processing

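The count of members called was 0 under every alternative run, except that without Vldlr OE replicate 2, which leaves 1 library in that group, it was 1 (Cacna1g). The si-Thbs1 member median of -0.04 was -0.070 under median-ratio scaling and -0.069 under quantile normalization, and ran from -0.048 to -0.095 when 1 library was left out, and the cause was not tested. The Kcnj11 difference with Reelin ran from -0.37 to 0.0073 when 1 library was left out, and changed sign without Reelin replicate 1. The Reelin count of 4 lower members was 8 under either rescaling and 4 to 15 when 1 library was left out, and the median between the Cre genotypes ran from -0.07 to 0.11. With a replicate block 0 members were called in each comparison where it was run. The medians were as without it, which was fixed in advance because every group in those fits held the same replicate numbers. The paired fit of the Cre genotypes, balanced in the same way, called 0 genes with a member median of 0.01. For si-Thbs1 the replicate block called 43 genes, none a member, against 6 without it, and no filter called 0. Same-numbered libraries correlated at 0.16 (si-Vldlr), -0.06 (Reelin) and 0.41 (si-Thbs1), with only 2 numbers each. No paired analysis was possible for Vldlr OE because its Control columns, assigned by elimination, could not be tied to numbered samples. Counts of all genes called ran from 3 to 9 for si-Vldlr (4 to 167 when 1 library was left out, 167 without si-Control_v replicate 1), 1 to 13 for Reelin (4 to 9), 0 to 8 for Vldlr OE (2 to 257, with 80 after leaving out Control column 1 and 257 after leaving out Vldlr OE replicate 2), 0 to 43 for si-Thbs1 (15 to 268, 268 without si-Control_t replicate 1) and 0 to 1 in mouse. With 2 or 3 libraries a group, a difference that was not called is not shown to be absent.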
